A study of Mus musculus with 8 samples.

Results

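Tex19.1 and Tex19.2 are a pair of neighbouring mouse genes that are known for expression in the germline, and they were followed here over 8 arrays of cultured spermatogonial stem cells, which renew themselves and supply spermatogenesis. A probe set was taken when the platform annotation gave it Tex19.1 alone or Tex19.2 alone. The rule found 1 probe set for each gene, which is 2 of the 28944 probe sets tested and 2 of the 19938 genes with a probe set of their own. Both genes were picked because of their levels on these same arrays, so their values and ranks are a description and carry no test.

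The arrays form 3 groups of mouse cells. The serial transplant, long culture group has 2 arrays of cells carried through serial transplantation, labelled with a donor age of 1500 days and kept in culture for 14 to 18 months. The young donor, long culture group has 3 arrays of cells from donors of 8 days with the same 14 to 18 months of culture. The young donor, short culture group has 3 arrays of cells from donors of 8 days after 7 to 10 weeks of culture. Strain, sex and genotype are not given in the labels, and neither is the make-up of any feeder layer under the cells. Donor age and serial transplantation come together in 1 group and cannot be told apart. The labels do not say whether replicates are separate donors or cultures, so errors and p-values reflect array-to-array spread alone, and that spread may be technical.

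As background, Tex19.1 protein sits mainly in the cytoplasm of germ cells, pluripotent cells and placenta of the mouse. It binds Ubr2, an E3 ubiquitin ligase, and without Ubr2 the protein does not accumulate in mouse testis. Mice that lack Tex19.1 show raised retrotransposon transcripts in the testis, faulty chromosome synapsis in meiosis and impaired spermatogenesis, and Tex19.1 is also linked to the upkeep of cohesin between sister chromatids. Tex19.2 arose with it by duplication in rodents and is expressed in testis. Tex19.1 is among the germline genes whose promoters are methylated and silent in somatic cells.

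The promoters are shown because the pair differs in CpG content there and because promoter methylation is a known control of Tex19.1. In the RefSeq tables of mouse build GRCm38.p6 the genes lie on chromosome 11 on opposite strands, with starts 27466 bases apart. The 250 bases upstream of each start are chr11:121145893-121146142 on the plus strand for Tex19.1 and chr11:121118678-121118927 on the minus strand for Tex19.2. The promoters of Tdrd9 (chr12:111971309-111971558, plus strand) and Dpep3 (chr8:105979420-105979669, minus strand), germline genes that return below, are given for comparison. All are written 5′ to 3′ in the direction of the gene, and capitals mark CpG, the dinucleotide that is methylated in mammals.
Tex19.1: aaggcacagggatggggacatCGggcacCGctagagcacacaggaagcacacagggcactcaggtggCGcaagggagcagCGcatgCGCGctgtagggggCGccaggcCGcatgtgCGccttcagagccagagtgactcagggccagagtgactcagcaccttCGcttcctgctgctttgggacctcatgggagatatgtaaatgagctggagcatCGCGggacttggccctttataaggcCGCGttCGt
Tex19.2: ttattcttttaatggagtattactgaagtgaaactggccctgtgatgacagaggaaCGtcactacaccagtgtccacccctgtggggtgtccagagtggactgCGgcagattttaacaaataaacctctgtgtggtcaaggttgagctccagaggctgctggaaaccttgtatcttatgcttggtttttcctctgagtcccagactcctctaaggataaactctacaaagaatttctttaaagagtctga
Tdrd9: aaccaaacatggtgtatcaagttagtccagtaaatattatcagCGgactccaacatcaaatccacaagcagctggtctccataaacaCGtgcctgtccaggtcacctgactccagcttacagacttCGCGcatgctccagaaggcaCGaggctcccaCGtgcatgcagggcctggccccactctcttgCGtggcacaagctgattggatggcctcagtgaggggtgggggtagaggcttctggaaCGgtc
Dpep3: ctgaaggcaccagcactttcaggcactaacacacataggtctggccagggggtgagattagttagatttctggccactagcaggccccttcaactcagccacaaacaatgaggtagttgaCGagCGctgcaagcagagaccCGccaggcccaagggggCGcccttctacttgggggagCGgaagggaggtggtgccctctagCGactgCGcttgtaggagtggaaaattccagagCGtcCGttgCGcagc

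The Tex19.1 window held 15 CpG, a GC content of 61.6% and an observed-to-expected CpG ratio of 0.643. The Tex19.2 window held 2 CpG, a GC content of 44.4% and a ratio of 0.163. Where a gene had several listed starts, the window with the most CpG was kept, so its count is the highest of its starts. Each member had 1 listed start. Over 15614 measured genes with such a window the median was 12 CpG, with quartiles of 4 and 21, a median GC content of 57.6% and a median ratio of 0.617. Thus 57.0% of these genes had fewer CpG than Tex19.1 and 12.3% had fewer than Tex19.2, so the pair lay on different sides of the median. The Tdrd9 and Dpep3 windows held 8 and 10 CpG. The search for motifs covered both strands and was chosen with the sequence in view. TGACTCA, the AP-1 motif, occurred in the Tex19.1 window 117 and 101 bases before the start and in 3.84% of all windows at least once, and 0.147% of windows held it at least 2 times. GCGGGA, an E2F core that can share bases with GGGCGG, occurred at least once in 24.8% of windows. In the Tex19.1 window it occurred once, 33 bases before the start, and overlapped none of the other motifs searched. CACGTG and GGGCGG were in neither member's window and in 7.19% and 48.0% of all windows. The Tex19.2 window held none of the 4 motifs.

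All values that follow are deposited RMA signals on a log2 scale, in which a difference of 1 is a doubling. Tex19.1 read 6.50 and 5.54 in serial transplant, long culture cells, 5.998, 6.24 and 6.52 in young donor, long culture cells and 9.95, 9.47 and 9.87 in young donor, short culture cells. Every long-culture array was at 6.52 or below and every short-culture array at 9.47 or above, so the long-culture groups overlapped each other and neither overlapped the short-culture group. The group means were 6.02 ± 0.68 (SD, n = 2), 6.25 ± 0.26 (SD, n = 3) and 9.76 ± 0.26 (SD, n = 3) in the same order of groups. The plot of both genes by array shows this step.

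**Figure D1:**
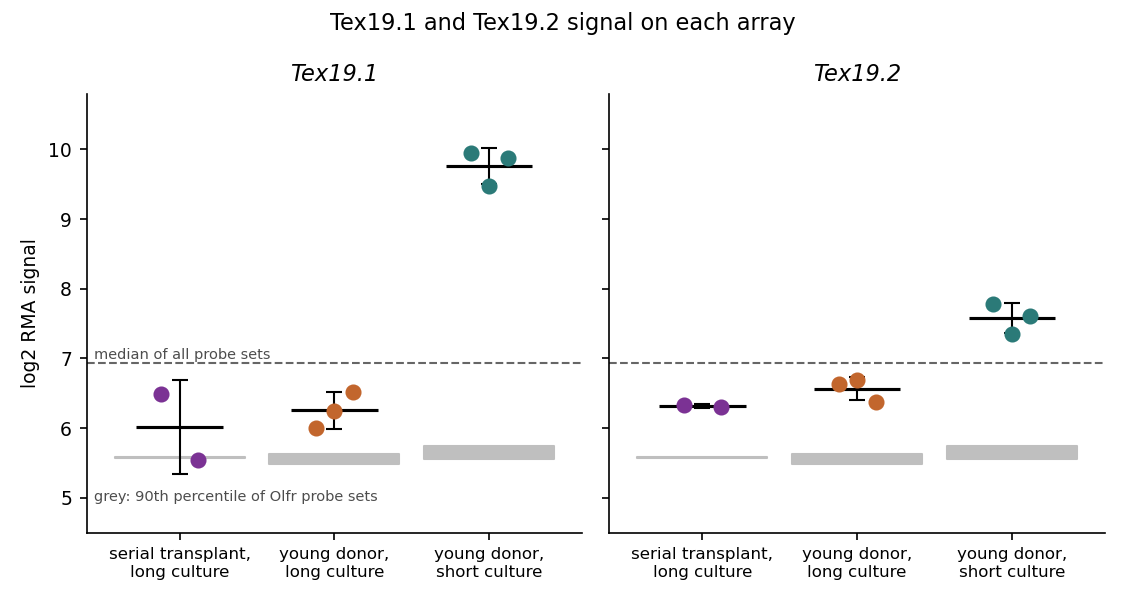
Log2 signal of Tex19.1 and Tex19.2 on each array (points) with the group mean (line) and SD (whiskers), the median of all probe sets (dashed) and the range of the arrays' 90th percentile of olfactory receptor probe sets (grey), for serial transplant, long culture, young donor, long culture and young donor, short culture cells from left to right; no test was run on these genes. Tex19.1 was at most 6.52 on the 5 long-culture arrays and at least 9.47 on the 3 short-culture arrays, and Tex19.2 was at most 6.69 and at least 7.36.

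Tex19.2 read 6.33 and 6.30 in serial transplant, long culture cells, 6.64, 6.69 and 6.37 in young donor, long culture cells and 7.77, 7.36 and 7.61 in young donor, short culture cells. It too was higher on every short-culture array than on every long-culture array, with a smaller step than Tex19.1. The means were 6.32 ± 0.03 (SD, n = 2), 6.57 ± 0.17 (SD, n = 3) and 7.58 ± 0.21 (SD, n = 3). In the short-culture group replicate 2 was the lowest array for both genes. Levels of the pair are not set against each other, because a probe set's brightness also depends on its own probes.

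Placed within its own array, Tex19.1 stood at percentiles 43.0 and 27.4 of all probe sets in serial transplant, long culture cells, at 35.6, 38.1 and 44.5 in young donor, long culture cells and at 88.8, 84.7 and 88.4 in young donor, short culture cells. Tex19.2 stood at percentiles 40.2 and 40.0, then 46.0, 46.0 and 41.8, then 61.3, 55.7 and 59.3 in the same groups. Both genes were thus under the middle of all probe sets in long culture and above it in short culture.

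Signal that comes from no transcript was gauged with 1035 probe sets of olfactory receptors (Olfr), odour receptors that are mostly silent outside the nose. In serial transplant, long culture cells 25 and 112 of them were brighter than Tex19.1, in young donor, long culture cells 42, 37 and 17, and in young donor, short culture cells 0 on each array. For Tex19.2 the same counts were 30 and 24, then 16, 17 and 23, then 2, 5 and 3. Both members therefore stood above at least 89.2% of the Olfr probe sets on every array. RMA gives no detection call, so how much of the long-culture signal of either gene is background cannot be read from these values, and the differences below may understate the change in RNA.

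Long against short culture of young-donor cells was the first comparison. Tex19.1 was lower by 3.51 ± 0.22 log2 (SE, n = 3 and 3), which is 11.4-fold, and 2.94 separated the highest long-culture array from the lowest short-culture array. Only 2 of the 19938 genes had a more negative difference, the granzymes Gzmc (-5.77) and Gzmd (-5.40), proteases of killer lymphocytes. The next after it were Srgn (-2.90), Cpa3 (-2.79) and Lilr4b (-2.71), so Tex19.1 lay apart from the genes on both sides. With each array left out in turn its difference ran between -3.66 and -3.38.

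Tex19.2 was lower by 1.01 ± 0.13 log2 (SE, n = 3 and 3), or 2.02-fold, with a gap of 0.67 between the groups. It had rank 240 from the lowest of 19938 genes, between Nfkb2 (-1.02) and App (-1.01), and ran between -1.13 and -0.92 with single arrays left out. The difference of Tex19.1 minus that of Tex19.2 was -2.50 log2. Both genes were among those whose groups did not overlap with the long-culture group lower, which held for 17.8% of all genes, and nothing is read from that count because the genes were chosen on this contrast.

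**Figure D2:**
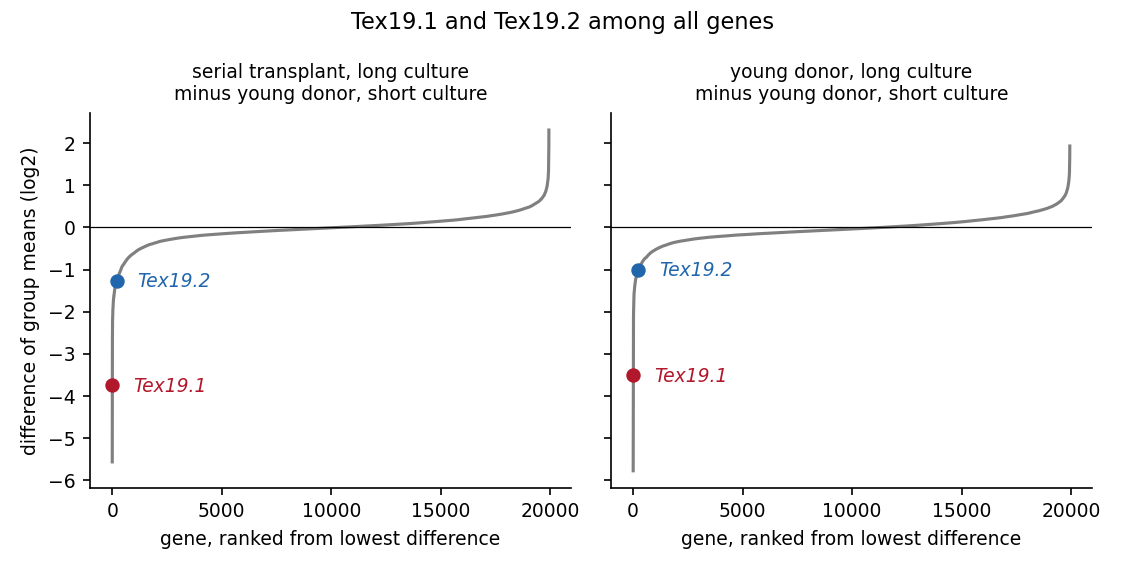
Difference of group means (log2) of all 19938 genes ranked from lowest to highest, for serial transplant, long culture (left) and young donor, long culture (right) minus young donor, short culture, with both members marked. Tex19.1 has rank 3 in both panels at -3.74 (left) and -3.51 (right), and Tex19.2 has rank 205 at -1.26 (left) and 240 at -1.01 (right).

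Serial transplant, long culture against young donor, short culture cells gave the same picture with fewer arrays. Tex19.1 was lower by 3.74 ± 0.25 log2 (SE, n = 2 and 3), or 13.4-fold, with a gap of 2.97 between the groups, and again only Gzmc (-5.56) and Gzmd (-5.40) were more negative. Tex19.2 was lower by 1.26 ± 0.14 log2 (SE, n = 2 and 3), or 2.40-fold, with a gap of 1.02 and rank 205. The difference of Tex19.1 minus that of Tex19.2 was -2.48 log2, and groups failed to overlap in this direction for 20.4% of all genes. This comparison uses the same 3 short-culture arrays as the previous one, so the likeness of the values is not a repeat measurement. Without serial transplant replicate 1 Tex19.1 differed by -4.22 and without replicate 2 by -3.27, since the 2 arrays read 6.50 and 5.54.

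Between the long-culture groups the differences of both genes were small. Tex19.1 differed by -0.24 ± 0.25 log2 (SE, n = 2 and 3) with overlapping groups, and the sign rested on 1 array: it was 0.24 without serial transplant replicate 2 and -0.71 without replicate 1. Tex19.2 differed by -0.25 ± 0.14 log2 (SE, n = 2 and 3), and its groups failed to overlap by 0.04, as those of 11.4% of all genes did in the same direction. No probe set was called in this comparison (limma, Benjamini-Hochberg adjusted p under 0.05, smallest adjusted p 0.0627), and 2079 had an unadjusted p under 0.05.

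The label of the cells was checked with marker lists, given as the mean log2 signal of a list on each array. Germ cell markers (10 genes) ran from 10.69 to 10.79 in serial transplant, long culture cells, 10.43 to 10.59 in young donor, long culture cells and 10.13 to 10.49 in young donor, short culture cells. Undifferentiated spermatogonia markers (16 genes) ran from 9.12 to 9.20, 9.10 to 9.21 and 8.95 to 9.39. Both lists were bright in all groups as a mean, but undifferentiated markers moved both ways. Of these, 2 rose and 3 fell in young donor, long culture cells against young donor, short culture cells, where 6.10% of all genes rose and 6.69% fell, the fallers being the self-renewal regulators Bcl6b (-1.004, limma adjusted p 0.00500), Id4 (-0.80, adjusted p 0.00353) and Lhx1 (-1.30, adjusted p 0.00626). Against the same arrays 1 rose and 4 fell in serial transplant, long culture cells, where 4.10% of all genes rose and 5.96% fell, and none of these calls was made without serial transplant replicate 2. Of the 10 germ cell markers, 9 differed upwards and 1, Ddx4, downwards (-0.35) in young donor, long culture cells against young donor, short culture cells. The part of germ cell content in the members' step was not tested.

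Markers of differentiating spermatogonia (9 genes) moved with the step in the other direction. They ran from 8.73 to 8.81 in serial transplant, long culture cells, 8.48 to 8.73 in young donor, long culture cells and 7.96 to 8.31 in young donor, short culture cells, so they were higher on every long-culture array, where both members were lower. Against young donor, short culture 6 rose and 1 fell in young donor, long culture cells, where 6.10% of all genes rose and 6.69% fell. Kit, the receptor of stem cell factor, gave 1.41 (limma adjusted p 0.00123). Stra8, a gene of entry into meiosis, gave 1.14 (limma adjusted p 0.0173). The Stra8 call was lost without young donor, long culture replicate 2 or 3 or young donor, short culture replicate 1. Of the same markers 5 rose and 0 fell in serial transplant, long culture cells, and 0 rose without serial transplant replicate 2. Over all genes 4.10% rose and 5.96% fell in serial transplant, long culture cells against young donor, short culture cells. The part of the shift of differentiating markers in the members' step was not tested. Among the arrays, young donor, short culture replicate 2, which had the lowest Tex19.1 and Tex19.2 of its group, stood apart from the other arrays (correlation with other short-culture arrays 0.991 and 0.990, against 0.996 between those).

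Of the markers of other cells, those of leukocytes, fibroblasts and Leydig cells followed the step as list means, and Sertoli cell markers did not. Of 11 Sertoli cell markers, 2 rose and 0 fell in young donor, long culture cells, where 6.10% of all genes rose and 6.69% fell. In serial transplant, long culture cells 3 rose and 1 fell, where 4.10% of all genes rose and 5.96% fell. Over the alternatives the serial transplant risers ran between 0.40 and 1.06 log2 (Wt1), 0.93 and 1.41 (Trf) and 0.89 and 1.24 (Aard). Of 7 endothelium markers 0 were called in either comparison, where 12.8% and 10.1% of all genes were called. Nothing is read from that count of few genes. The endothelium list means were 6.33 in both long-culture groups and 6.45 in the short-culture group. Leukocyte markers (12 genes) ran from 5.54 to 5.56 in serial transplant, long culture cells, 5.35 to 5.53 in young donor, long culture cells and 6.32 to 7.14 in young donor, short culture cells. Fibroblast markers (18 genes) ran from 8.93 to 9.49, 9.44 to 9.49 and 9.96 to 10.5, and 5 Leydig cell markers from 5.48 to 5.53, 5.41 to 5.50 and 6.10 to 6.55. Against young donor, short culture cells 8 of 12 leukocyte and 12 of 18 fibroblast markers fell in young donor, long culture cells, where 6.69% of all genes fell, and the fibroblast count was 7 without young donor, long culture replicate 1 and 5 without replicate 3. Of the same lists 7 of 12 and 13 of 18 fell in serial transplant, long culture cells, where 5.96% of all genes fell, and without serial transplant replicate 2 the counts were 3 and 0. The leukocyte count there was 4 without serial transplant replicate 1. From 4 to 5 of the 12 leukocyte markers lay below the lower quartile of their array in serial transplant, long culture cells, 5 to 6 in young donor, long culture cells and 1 to 3 in young donor, short culture cells. Of the 5 Leydig cell markers 3 fell in young donor, long culture cells (Cyp11a1, Star and Nr5a1). In serial transplant, long culture cells 2 of the 5 fell (Cyp11a1 and Star). From 2 to 3 of the 5 lay below the lower quartile of their array in each long-culture group, and 2 in young donor, short culture cells. Leukocyte markers were highest at 7.14 and fibroblast markers at 10.5 in young donor, short culture replicate 2, the array on which Tex19.1 (9.47) and Tex19.2 (7.36) were lowest among their group. The Leydig list went the other way and was lowest in that replicate too, at 6.55, 6.10 and 6.19 over replicates 1, 2 and 3. The part of these cells in the members' step was not tested. In RNA of whole cultures, fewer cells that express a gene and less RNA of it per cell cannot be told apart.

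The germline genes that promoter methylation is known to silence in somatic cells were taken as the group closest to Tex19.1, and 25 of 26 were measured. In young donor, long culture cells 3 fell and 8 rose against young donor, short culture cells (limma, adjusted p under 0.05), where 6.69% of all genes fell and 6.10% rose, and the median difference of the list was 0.25 against -0.04 over all genes. The list thus held falls and rises together, and its fallers were fewer and smaller than Tex19.1. Of the fallers, Tdrd9, an RNA helicase of the piRNA pathway, read 6.50 and 6.04 in serial transplant, long culture cells, 5.88, 6.15 and 5.89 in young donor, long culture cells and 8.29, 7.70 and 8.23 in young donor, short culture cells. Dpep3, a testis membrane dipeptidase, read 6.30 and 5.89, then 5.74, 5.85 and 5.79, then 7.90, 7.44 and 7.88.

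For both of these genes no long-culture array reached the short-culture range. In young donor, long culture cells Tdrd9 fell by 2.10 ± 0.17 log2 (SE, n = 3 and 3, limma adjusted p 0.000167) and Dpep3 fell by 1.95 ± 0.14 (SE, n = 3 and 3, adjusted p 0.000109). In serial transplant, long culture cells Tdrd9 fell by 1.80 (adjusted p 0.00103) and Dpep3 fell by 1.64 (adjusted p 0.000709) against the same short-culture arrays, where 5.96% of all genes fell. Pdha2, a testis-specific subunit of pyruvate dehydrogenase, fell by 0.92 (adjusted p 0.00651) in young donor, long culture cells.

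The rises in young donor, long culture cells were small beside these falls, between 0.38 and 0.72 log2, and numbered 3 without replicate 1 or replicate 3 of that group and 4 without its replicate 2 or replicate 1 or 2 of young donor, short culture. They included Brdt, a bromodomain protein of spermatogenesis (0.72, limma adjusted p 0.00498), Rhox13, a homeobox gene (0.69, adjusted p 0.0109), Sohlh2, a germ cell transcription factor (0.62, adjusted p 0.00898) and Tex101, a germ cell surface protein (0.51, adjusted p 0.0205). Dazl, a germ cell RNA-binding protein whose promoter is also silenced in somatic cells, rose by 0.46 (adjusted p 0.0254), while Ddx4, a germ cell helicase, gave -0.35 and Mael, of the piRNA pathway, 0.09, neither past the threshold. In serial transplant, long culture cells 2 of the list fell and 6 rose, where 5.96% of all genes fell and 4.10% rose, and without serial transplant replicate 2 the counts were 2 and 0.

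**Figure D3:**
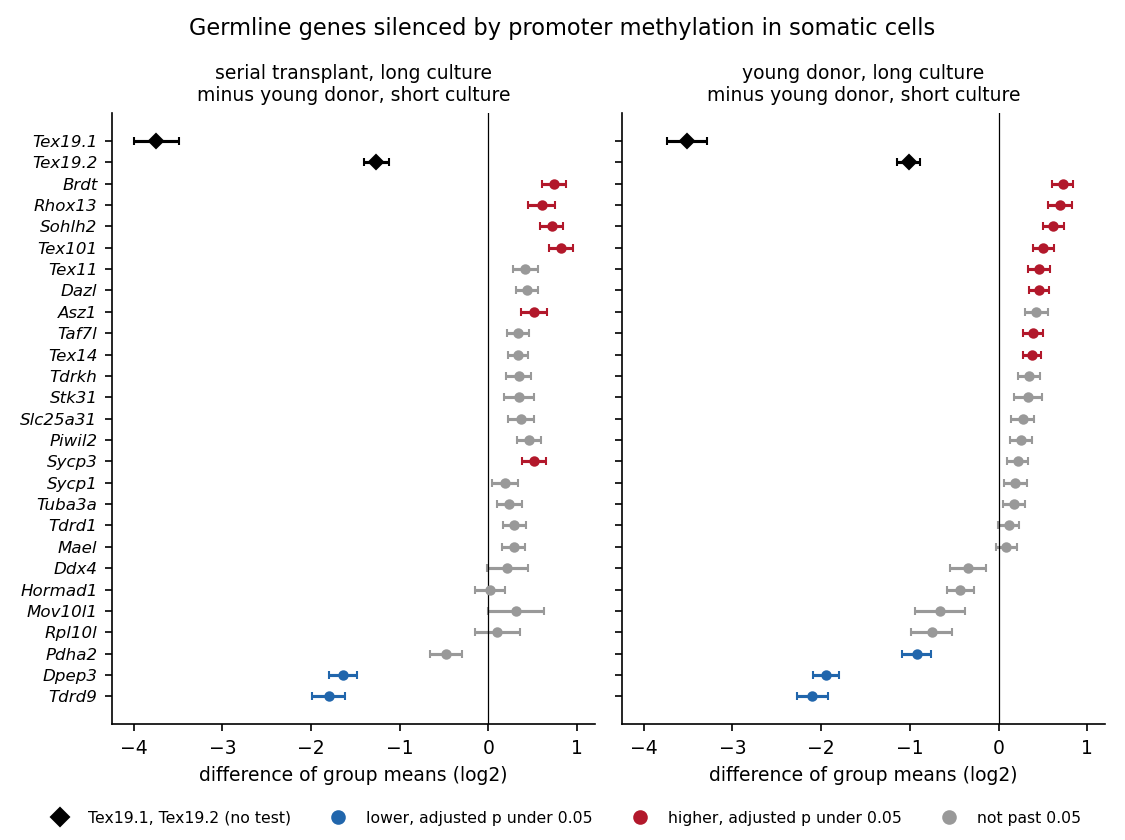
Difference of group means (log2) with its standard error for the 25 measured germline genes and the 2 members, for serial transplant, long culture (left) and young donor, long culture cells (right) minus young donor, short culture cells; blue fell and red rose past an adjusted p of 0.05, grey did not pass, and members carry no test. Tex19.1 (-3.74 left, -3.51 right) lies beyond Tdrd9 (-1.80 left, -2.10 right) and Dpep3 (-1.64 left, -1.95 right), and most of the list lies above 0.

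Set against their promoters, the 3 germline genes that fell held 4 to 10 CpG in the 250 bases before the start (median 8), the 7 with a window that rose held 4 to 20 (median 14), and the 13 with no call held 8 to 31 (median 18). Tex19.1, with 15 CpG, was above all of the fallers, and Tex19.2, with 2, was below them. The counts are a description of few genes.

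Ubr2, the ligase that binds Tex19.1, read 9.98 and 10.06 in serial transplant, long culture cells, 10.00, 10.08 and 10.09 in young donor, long culture cells and 9.92, 9.94 and 9.92 in young donor, short culture cells. Its difference was 0.13 ± 0.09 (SE, n = 3 and 3, limma adjusted p 0.397) between the young-donor groups and 0.10 (adjusted p 0.658) for serial transplant, long culture cells. Ubr2 was at 9.92 or above on every array, including those on which Tex19.1 was low. Over all genes 6.69% fell and 6.10% rose in young donor, long culture cells. Of the 9 measured genes of the Ubr and N-degron list (of 11), 1 fell and 0 rose there, and nothing is read from this count. The 1 gene that fell was Ubr1, a ligase that recognises N-terminal degrons, by 1.01 ± 0.13 (SE, n = 3 and 3, adjusted p 0.00202). Ubr1 read 6.74 and 6.75 in serial transplant, long culture cells and 6.76, 6.75 and 6.87 in young donor, long culture cells. In young donor, short culture cells it read 7.79, 8.10 and 7.53. Neither long-culture group overlapped the short-culture group, as for 20.4% (serial transplant) and 17.8% (young donor) of all genes in this direction.

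In serial transplant, long culture cells Ubr1 fell by 1.06 (limma adjusted p 0.00363, or 0.0692 without serial transplant replicate 2) and Wdyhv1, the amidase that prepares N-terminal glutamine, rose by 0.62 (adjusted p 0.0108, or 0.157 without that array). Tex19.1 has also been tied to cohesin, the ring that holds sister chromatids together, and 17 of 17 genes of that list were measured. In young donor, long culture cells 6 rose and 0 fell, at a median of 0.28, where 6.10% of all genes rose, among them Rad21, the kleisin subunit (0.47, adjusted p 0.0222), and Rec8, its meiotic counterpart (0.49, adjusted p 0.0346). Smc3, the cohesin subunit that Tex19.1 is linked to through its acetylation, gave 0.28 (adjusted p 0.173). The calls of the 6 rises were sensitive to the number of arrays. There was 1 left without young donor, long culture replicate 1 or 2 and 0 without replicate 3. There were 2 without young donor, short culture replicate 1 and 1 without its replicate 2. Calls over all probe sets fell as well, from 3260 to 1085 without young donor, long culture replicate 3. Rad21 lost its call without any 1 of the young donor, long culture arrays, and Rec8 lost it in 5 of 16 alternatives. Over the alternatives the difference stayed between 0.36 and 0.55 for Rad21 and between 0.39 and 0.64 for Rec8. The differences of these genes were smaller than that of Tex19.1.

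Because mice that lack Tex19.1 show raised retrotransposon transcripts in the testis, other genes that hold back retrotransposons were examined. Of 21 measured piRNA pathway genes 3 rose and 2 fell in young donor, long culture cells, where 12.8% of all genes changed, the fallers being Tdrd9 and Morc1, a chromatin protein that silences transposons (-1.06, limma adjusted p 0.0401, with replicate 1 of that group at 7.01 and the other arrays at 8.62 and 7.86). Morc1 lost its call in 9 of its 16 alternatives, and 0 piRNA genes rose when any 1 of the young donor, long culture arrays, or replicate 1 or 2 of young donor, short culture, was left out. Of 20 measured restriction and silencing genes outside that pathway 3 rose and 0 fell, where 6.10% of all genes rose and 6.69% fell. Kdm1a, a histone demethylase, rose by 0.49 (limma adjusted p 0.0137). Apobec3, a cytidine deaminase that blocks retroviruses, rose by 0.51 (adjusted p 0.0233) and Samhd1, a nucleotide hydrolase, by 0.46 (adjusted p 0.0362). Of these 3, 0 kept the call without young donor, long culture replicate 3, and the list held 1 rise when replicate 1 or 2 of young donor, long culture or of young donor, short culture was left out. Samhd1 lost its call in 8 of 16 alternatives, and Apobec3 gave 0.16 (adjusted p 0.294) with the mean of its probe sets. Among 13 measured DNA methylation genes 0 rose and 1 fell, where 6.69% of all genes fell, so nothing is read from the 1 fall. That gene was Dnmt3l, which fell by 0.51 (limma adjusted p 0.0425) and lost its call in 9 of 15 alternatives. Its mean was low, at 5.15 in young donor, long culture cells and 5.67 in young donor, short culture cells. None of the called genes of these 3 lists fell as far as Tex19.1, and Tdrd9 and Morc1 were the piRNA genes past -1.01, the difference of Tex19.2.

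The 31 measured genes with a numbered Tex name share a label (testis-expressed) and are not a family. Of these, 5 rose and 1 fell in young donor, long culture cells. Over all genes 6.10% rose and 6.69% fell, so nothing is read from the 1 fall. The rises numbered 0 without replicate 1 or replicate 3 of that group and 1 without its replicate 2. They numbered 3 and 2 without replicates 1 and 2 of young donor, short culture. The faller was Tex12, of the synaptonemal complex, which fell by 1.38 (limma adjusted p 0.0105). Tex12 read 6.37 and 5.69 in serial transplant, long culture cells, 4.72, 5.99 and 5.58 in young donor, long culture cells and 6.98, 6.81 and 6.63 in young donor, short culture cells.

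Genes that lie next to the pair on chromosome 11 were examined for a shift of the same kind, with 8 measured genes on each side. In young donor, long culture cells 0 of 16 were called (limma, smallest adjusted p 0.0705, and 7 had an unadjusted p under 0.05), against 12.8% of all genes, and their differences ran from -0.36 for Sectm1a, the nearest on the Tex19.2 side, to 0.52 for Slc16a3. Uts2r, the nearest on the Tex19.1 side, differed by -0.01. In serial transplant, long culture cells 1 of 16 was called, against 10.1% of all genes, and that was a rise of 0.76 ± 0.15 for Cd7 (SE, n = 2 and 3, adjusted p 0.0126), a lymphocyte surface protein, a call that was lost without either serial transplant array. No neighbour came near the -3.51 of Tex19.1 or the -1.01 of Tex19.2. Those differences had ranks 3 and 240 from the lowest of 19938 genes, so few genes anywhere reached them. The absence of such a fall among 16 neighbours therefore cannot show whether the step was confined to the pair.

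**Figure D4:**
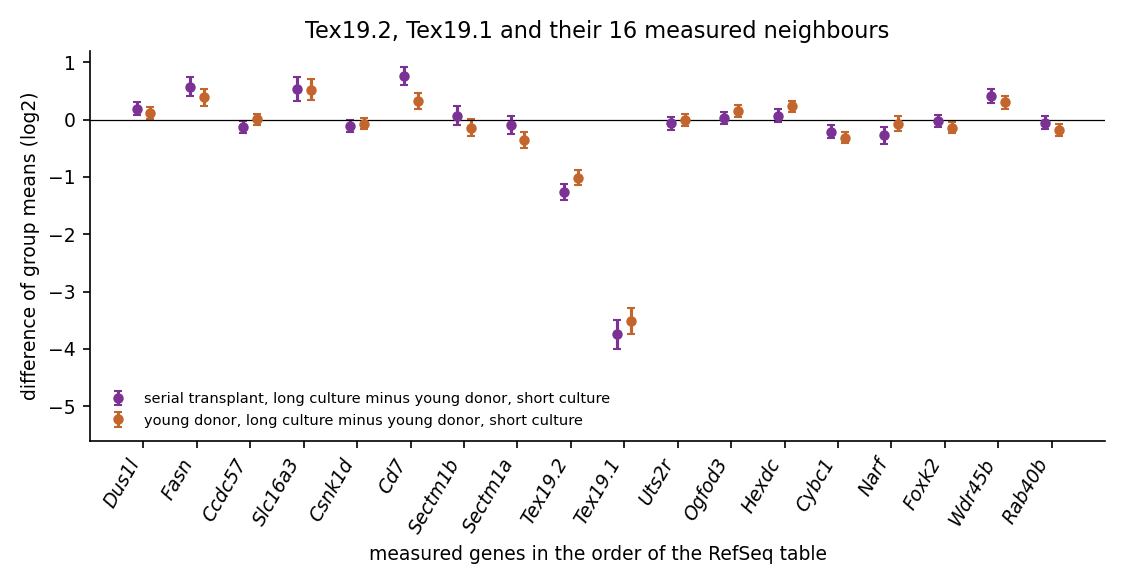
Difference of group means (log2) of the 8 measured genes on each side of Tex19.2 and Tex19.1 and of the pair itself, in RefSeq order, for serial transplant, long culture (purple) and young donor, long culture cells (orange) minus young donor, short culture cells, with standard errors. The neighbours lie between -0.36 and 0.76, and Tex19.1 lies at -3.74 (purple) and -3.51 (orange).

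Genes with the most similar profile to Tex19.1 were ranked by the root mean square difference of log2 values, each gene centred on its mean over the 8 arrays. The first were Prl2c5, a prolactin-family gene (0.69), Srgn, a granule proteoglycan of blood cells (0.71), Cyp11a1, the first enzyme of steroid synthesis (0.73), Adh1, an alcohol dehydrogenase (0.75), and Aldh1a1, a retinal dehydrogenase (0.77). Tdrd9 had rank 9 at 0.84, and Tex19.2 had rank 176 at 1.24. Srgn and Cyp11a1 are also in the leukocyte and Leydig lists. Srgn read 7.08, 8.27 and 6.94 in young donor, short culture cells and was thus highest in replicate 2, where Tex19.1 (9.47) was lowest. Cyp11a1 read 8.24, 7.01 and 7.54 and Adh1 9.30, 8.62 and 8.87 on those arrays, both lowest in replicate 2 as Tex19.1 was.

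The closest to Tex19.2 were Nckap1l, a blood cell actin regulator (0.14), Taf7l2 (0.16), Lmna, the nuclear lamin A gene (0.16), Rab25 (0.18) and Gbgt1 (0.18). The profile of Tex19.1 had rank 18598 from that of Tex19.2 by this measure, which weighs the size of the step and not its shape alone.

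**Figure D5:**
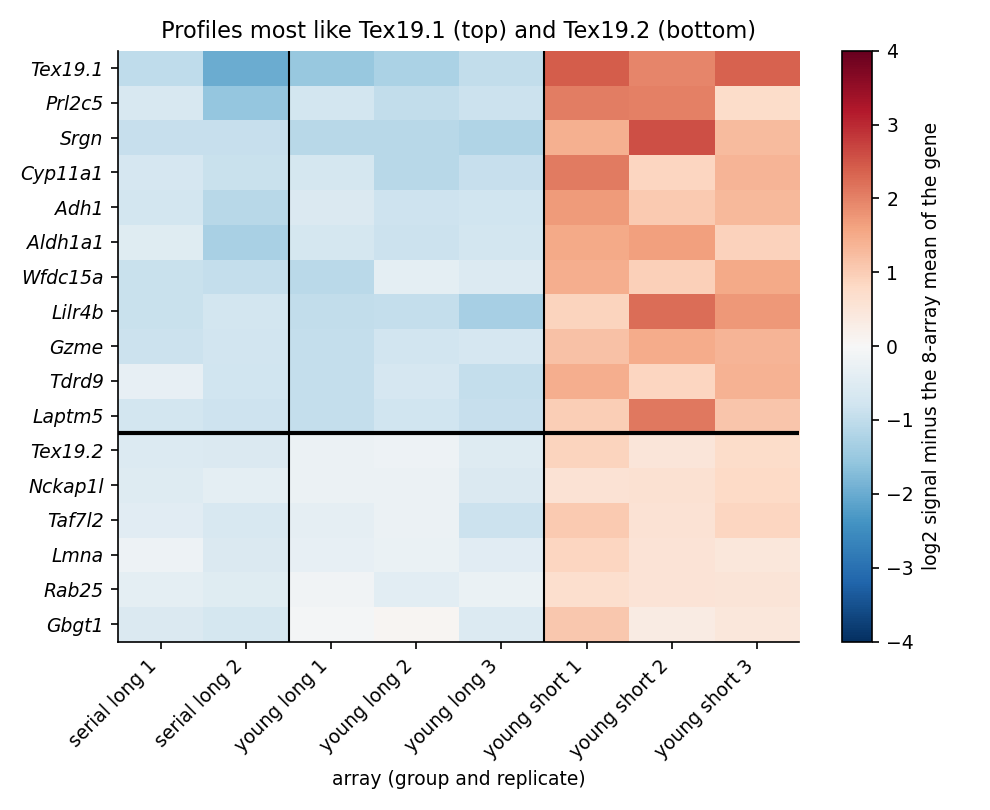
Heat map of log2 values minus each gene's mean over the 8 arrays (colour, blue below and red above), with Tex19.1 and the 10 genes most like it above the line, Tex19.2 and the 5 most like it below, and arrays in columns from serial transplant, long culture to young donor, short culture. Every profile shown is above its mean on all 3 short-culture arrays, and the deepest red is Srgn on young donor, short culture replicate 2.

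Depth has no counterpart on arrays, and the number of arrays, 2 or 3 a group, limits the precision. Array medians lay between 6.90 and 6.98, and no 2 arrays held identical values. Each gene rests on 1 probe set, and whether the probes of Tex19.1 and Tex19.2 read each other's transcripts was not tested here. The protein sequences were not used here. In all, 3260 probe sets (11.3%) were called between the young-donor groups, 48.3% of them higher (59.7% with arrays centred on their medians), and 2528 (8.73%) for serial transplant, long culture against young donor, short culture cells, 41.0% of them higher (51.0% centred), and without serial transplant replicate 2 the second count was 66.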

How the data were processed

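Total RNA of mouse spermatogonial stem cells was extracted with Trizol and hybridised to Affymetrix arrays as biotin-labelled cRNA, per the labels' protocols. The authors deposited log2 values, with 1 value for each probe set on each array. Per the submitters' processing notes, these came from Partek 6.4 with RMA, a method that subtracts background, equalises arrays and combines the probes of a set. Its settings were not given in these sources. The log2 scale was inferred from the range of 2.16 to 14.81.

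Of 35557 rows, 6613 in a leading run of identifiers were left out as presumed controls, judged by the numbering alone. Of 28944 probe sets, 21789 have 1 symbol, 1621 several and 5534 none. A gene is its probe set with the highest mean among those with 1 symbol, and 21698 probe sets matched RefSeq (GRCm38.p6). The 3 pairs of groups were tested by limma 3.58.1 under R 4.3.3 (1 coefficient per group over all 8 arrays, two-sided, 5 residual and 6.28 prior degrees of freedom, Benjamini-Hochberg over all probe sets, threshold 0.05). The test was tried on simulated data. Figures were drawn with matplotlib 3.10.9 in Python 3.11.15.

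The members and all 16 gene lists were chosen with earlier results of these data known. Genes named are the members, the Ubr list, the 16 neighbours, up to 4 genes with the smallest p per list and comparison, and the 10 and 5 genes most like Tex19.1 and Tex19.2. Genes named outside this rule (those next in rank to the members, and Mael) were added for their place or role after their values were seen. Alternatives were the intensity trend, array weights, only the groups compared, leaving out probe sets below the median, quantile normalization, centring, the replicate number as a block, the mean of probe sets, and each array left out. Scanner files, scan dates and probe sequences were not analysed here.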

Additional observations from a re-analysis of the deposited data

How the results depend on the processing

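Tex19.1 and Tex19.2 kept their direction against young donor, short culture cells under array weights, quantile normalization, centring, the replicate block, a fit of only the groups compared and each array left out. The intensity trend, the filter and the mean of probe sets were not run for them. Tex19.1 ran from -3.51 to -3.46 in young donor, long culture cells and from -3.84 to -3.65 in serial transplant, long culture cells, and with single arrays left out from -3.66 to -3.38 and from -4.22 to -3.27. Tex19.2 ran from -1.16 to -0.95 and from -1.33 to -1.22, and with single arrays left out from -1.13 to -0.92 and from -1.38 to -1.17. Between the long-culture groups Tex19.1 ran from -0.71 to 0.24 and Tex19.2 from -0.35 to -0.19 with single arrays left out. Correlations of deviations from the group mean were 0.0812, 0.176 and 0.102 between same-numbered young-donor arrays. Different-numbered young-donor pairs ran from -0.281 to 0.251, and same-numbered pairs with a serial transplant array from -0.268 to -0.0494. Deviations within a group cancel out, so these values cannot show whether arrays are paired by the replicate number. With it as a block Tex19.1 differed by -3.51 and -3.65 and Tex19.2 by -1.01 and -1.31, the probe sets called between the long-culture groups numbered 4, germline genes that rose in young donor, long culture cells numbered 5, and neighbours that rose in serial transplant cells numbered 3. Array weights gave 5079 probe sets between the young-donor groups, 22 between the long-culture groups, 1 gene of all lists there and 5 germline genes lower in young donor, long culture cells. A fit of only the groups compared gave 15 probe sets and 1 list gene between the long-culture groups, and 1252 probe sets and 3 germline rises for serial transplant against young donor, short culture cells. A filter to probe sets above the median took out Tdrd9, Dpep3 and Pdha2. Under it 1 other germline gene was called lower in young donor, long culture cells and 0 in serial transplant cells. With the same filter 1 neighbour was lower in young donor, long culture cells and 3 were higher in serial transplant cells. Neighbours that rose in serial transplant cells numbered 2 with the intensity trend, with centring and with the mean of probe sets. Apart from the removal of probe sets by the filter, the cause of these changes was not tested. With single arrays left out, probe sets called ran from 1085 to 3195 between the young-donor groups (1085 without young donor, long culture replicate 3), from 0 to 11 between the long-culture groups and from 66 to 2817 for serial transplant against young donor, short culture cells. Genes of all lists ran from 30 to 64, 0 to 0 and 5 to 65, against 67, 0 and 58 with all arrays. Germline rises ran from 3 to 9 and falls from 3 to 5 in young donor, long culture cells, and from 0 to 8 and 2 to 2 in serial transplant cells. Neighbours ran from 0 to 1 in either direction and from 0 to 3 for rises. Tdrd9 and Dpep3 kept their calls in all 15 alternatives that tested them, and the filter to probe sets above the median left both out. The higher share of calls was 52.1% after quantile normalization and 59.7% after centring between the young-donor groups, against 48.3% as deposited, and 45.6% and 51.0% for serial transplant cells, against 41.0%. Weak signal limits both members in long culture, where values lay below the array median.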
